A study of Hippoglossus hippoglossus with 15 samples.

Results

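Of the 10180 probe names on a custom Atlantic halibut oligonucleotide array, 131 (1.29%) represented transcripts whose level was higher at the stage with 10 somites than at germ ring, and higher again at hatching. They were chosen on measured values. A level is the log2 processed signal of a probe minus the 75th percentile of its array, so that 0 stands for a fairly bright probe on every array. The level of a transcript had to be from 1.5 to under 4 higher at 10 somites (mean of replicates 1 and 2) than at germ ring (mean of 3 arrays), at least 1.5 higher at hatching (mean of 3 arrays) than at 10 somites, and above -4 at hatching. The rule would have kept the 150 with the largest difference between hatching and germ ring, but only 131 transcripts met its limits, so all of them are described. No test is given for the differences between germ ring, 10SS replicates 1 and 2 and hatching, because these values chose the transcripts.

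Total RNA of whole farmed embryos was labelled with Cy3 and measured on 15 arrays on 5 slides. High quality embryos, defined by a high percentage of fertilised eggs and of hatched larvae, were sampled as embryos with 8 cells (8CS, 8 hours post fertilisation, hpf), at germ ring (GR, 82 hpf), with 10 somites (10SS, 142 hpf) and as hatched larvae (HT, 340 hpf), with 3 arrays per stage from separate batches of eggs. Low quality 8CS embryos, with few fertilised eggs and few hatched larvae, were measured on another 3 arrays. The labels name no genetic change and no treatment, and all eggs were fertilised in vitro with pooled sperm. The labels describe large incubators at 1 farm for every sample, whereas the methods describe another place for the high and low quality 8CS embryos of the quality comparison, where eggs were kept in dishes with filtered seawater and antibiotics. Which of these applies to the 3 high quality 8CS arrays, set here against both the stages and the low quality embryos, is not given in the sources used here. Since whole embryos were measured, a higher level per array may come from more cells of a kind or from more RNA per cell, which cannot be told apart.

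The fish embryo starts on transcripts that the mother laid down in the egg. Most of these are degraded while the genome of the embryo is switched on, around and after the blastula stage. Gastrulation, during which the germ ring forms at the edge of the blastoderm, is followed by segmentation, when somites, the blocks from which trunk muscle and vertebrae arise, are added from head to tail. Organs then differentiate until the larva leaves the egg. None of the 131 transcripts is paired with a gene name in the files or tables used here, so they are named by their array identifiers, and no function is given to any of them. Identifiers with Contig are consensus sequences assembled from several expressed sequence tags, and those with a number alone are single tags.

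Before the values, 3 arrays need mention. 10SS replicate 3 stood apart from the other 10SS arrays, on which the rule rests, and it lay on slide 5 together with all HT arrays. High quality 8CS replicates 1 and 2, both on slide 1, carried many of the transcripts that were bright at HT at levels not seen on the other 4 8CS arrays. Results are given with and without these arrays, and the cause was not tested. Every array had 43803 probe spots, no probe spot was saturated, and 69.3% to 90.1% of the probe names were well above background, a flag of the scanner software that a name received here if most of its spots carried it. The number of arrays limits the precision.

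All 131 transcripts were well above background on each HT array. On 10SS replicates 1 and 2, 128 and 131 transcripts were well above background, whereas at GR 36 were so on all 3 arrays, 17 on 1 or 2 and 78 on none. The median level over the transcripts was -6.89, -6.47 and -6.17 on GR replicates 1 to 3, -3.68 and -3.74 on 10SS replicates 1 and 2, and between -1.05 and -0.97 at HT. By comparison, the difference was taken for each of all 10180 names. Its median was -0.47 from GR to 10SS replicates 1 and 2 and 0.02 from these to HT. Both 10SS arrays lay above all GR arrays for 129 transcripts, which held for 31.1% of all names, and all HT arrays lay above both 10SS arrays for 131, which held for 37.1% of all names. The exceptions were HH_Contig2506 and HH_166850965, whose GR replicate 3 was as high as 10SS. Both counts follow from the rule and carry no weight of their own. Between arrays of the same slide, which are also arrays of the rule, the median first difference was 2.60 on slide 2 and 2.56 on slide 3. The HT arrays all lay on slide 5, so the stage and the slide cannot be told apart for the second difference. 10SS replicate 3 shared the slide, but it was not part of that difference.

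**Figure D1:**
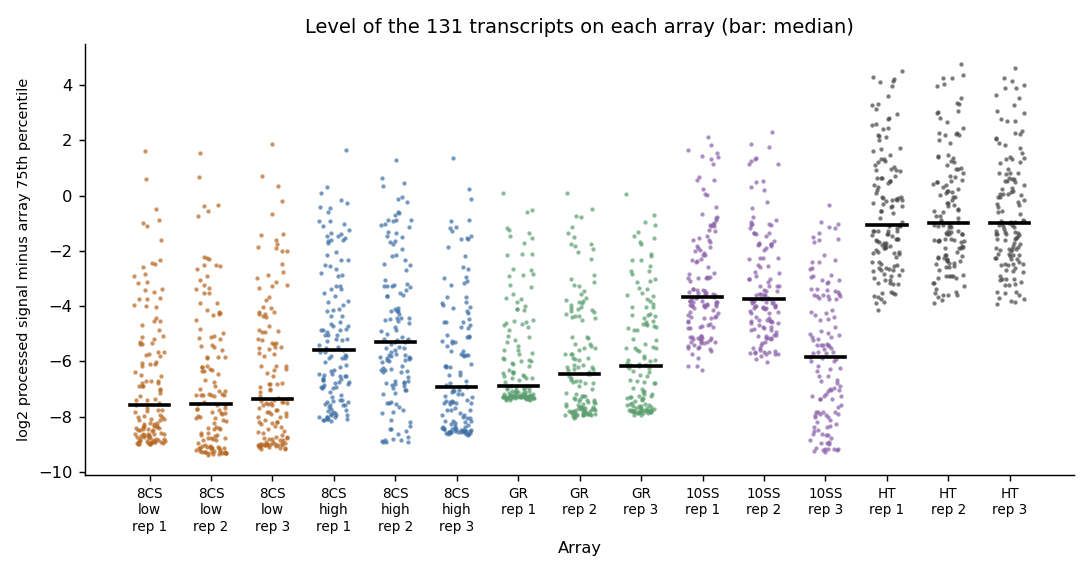
Level of the 131 transcripts (points; log2 processed signal minus the 75th percentile of the array) on each of the 15 arrays, with the median as a bar. The medians lie near -1 on the HT arrays and near -3.7 on 10SS replicates 1 and 2, while that of 10SS replicate 3 is -5.85, close to the GR arrays, and those of high quality 8CS replicates 1 and 2 (-5.60 and -5.30) are above those of the other 8CS arrays.

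The difference between GR and 10SS ranged from 1.51 to 3.95 (median 2.50, log2), and that between 10SS and HT from 1.51 to 10.2 (median 2.20). The first was the larger in 79 transcripts and the second in 52, with GR values near background taken as they stand. In sum HT was above GR by 3.12 to 11.9 (median 4.90), and by 6 or more in 25 transcripts. A second difference of 4 or more was found in 15 transcripts. Among the 36 transcripts well above background on all GR arrays, where all levels were measured, HT was 9.32-fold to 139-fold brighter than GR, with a median of 21.5-fold. For the 78 transcripts not well above background on any GR array only a lower bound can be given, which compares HT with the lowest signal among the probes well above background on each GR array. These bounds ranged from 3.75-fold to 1153-fold, with a median of 15.9-fold. Between GR and 10SS replicates 1 and 2, the 36 were 2.91-fold to 15.4-fold brighter at 10SS, with a median of 5.31-fold. For the 78 the bounds on this first difference ranged from 0.913-fold to 12-fold, with a median of 2.68-fold. The size of the first difference was therefore not measured in the 78.

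At the limits of the rule, the values were continuous. HH_Contig230 and HH_Contig1465 were just inside with HT above 10SS by 1.51, and HH_90596843 and HH_90601760 just outside with 1.50 and 1.49. For the first difference, HH_90603012 and HH_90602105 were inside with 1.51 and 1.52, and HH_90603275 and HH_90596537 outside with 1.48 and 1.46. Another 125 names met the remaining limits but had a first difference of 4 or more, and 3 failed only by their HT level. The lowest total difference of the transcripts kept was that of HH_90602105, with 3.12, after HH_90595886 with 3.22.

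**Figure D2:**
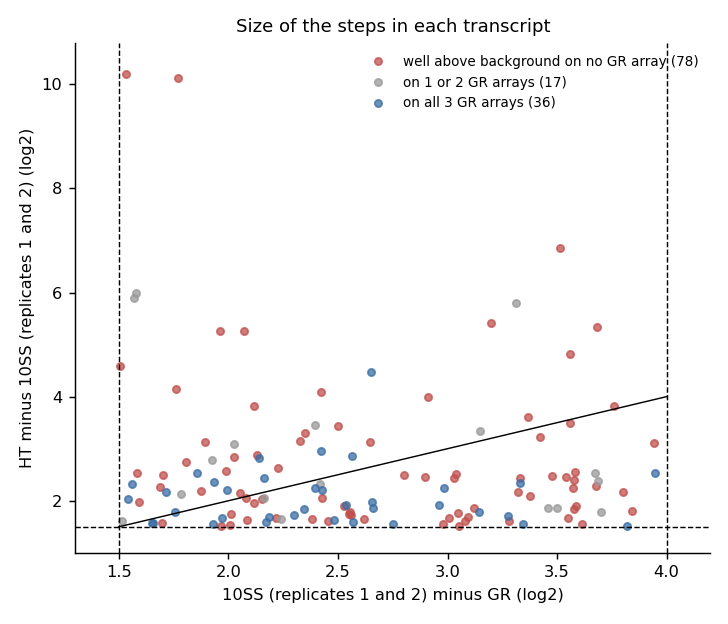
Difference between 10SS (replicates 1 and 2) and GR (x axis, log2) against that between HT and 10SS (y axis, log2) for the 131 transcripts, coloured by the number of GR arrays on which they were well above background. Dashed lines are the limits of the rule and the solid line marks equal differences, above which 52 transcripts lie.

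The 10 transcripts with the largest difference between HT and GR were not alike before hatching. HH_90601814 was at -6.89, -8.06 and -7.88 on the GR arrays, at -6.16 and -5.52 on 10SS replicates 1 and 2 and at 4.24, 4.37 and 4.26 at HT. It was thus near background up to 10SS, where 1 of the 2 arrays was well above background, and among the brightest transcripts at HT, at least 1153-fold above GR. HH_Contig1530 had nearly the same levels on every array, with a largest difference from HH_90601814 of 0.73 over the 15 arrays and a Pearson's r of 0.998. Whether both probes detect the same transcript was not tested. In both, almost the whole difference arose between 10SS and HT, where it was 10.1 and 10.2.

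HH_90605554 was at -7.11, -7.63 and -7.81 at GR, at -4.24 and -3.77 on the 10SS arrays and at 2.55, 2.98 and 3.00 at HT, which was at least 423-fold above GR. Its first difference of 3.51 was close to the upper limit of the rule, and the second was 6.85. HH_62388603 was the brightest of the 131 at HT, with 4.52, 4.78 and 4.61, after -4.86, -4.17 and -4.37 at GR and -1.25 and -1.06 at 10SS. It was well above background on 2 GR arrays and was 552-fold brighter at HT than at GR.

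HH_166851152, HH_Contig1969, HH_Contig166 and HH_Contig751 had large values for both differences. None of them was well above background at GR, so the size of the first difference was not measured. Their 10SS means were between -4.46 and -3.40 and their HT means between -0.08 and 1.48. With GR values near background taken as they stand, the differences of HH_Contig751 were 3.76 and 3.82. Its levels were -3.86 and -3.94 at 10SS and -0.13, -0.06 and -0.05 at HT. HT was at least 165-fold above GR for HH_166851152, at least 113-fold for HH_Contig1969, at least 158-fold for HH_Contig166 and at least 55.7-fold for HH_Contig751. HH_Contig2506 and HH_166850965 differed from these in that GR replicate 3 was far above the other GR arrays. HH_Contig2506 was at -5.70, -6.32 and -3.53 at GR against -3.53 and -3.69 on 10SS replicates 1 and 2, and HH_166850965 at -6.52, -6.20 and -2.71 against -3.56 and -3.58. For both, the first difference of the rule (1.58 and 1.57) rests on GR replicates 1 and 2.

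**Figure D3:**
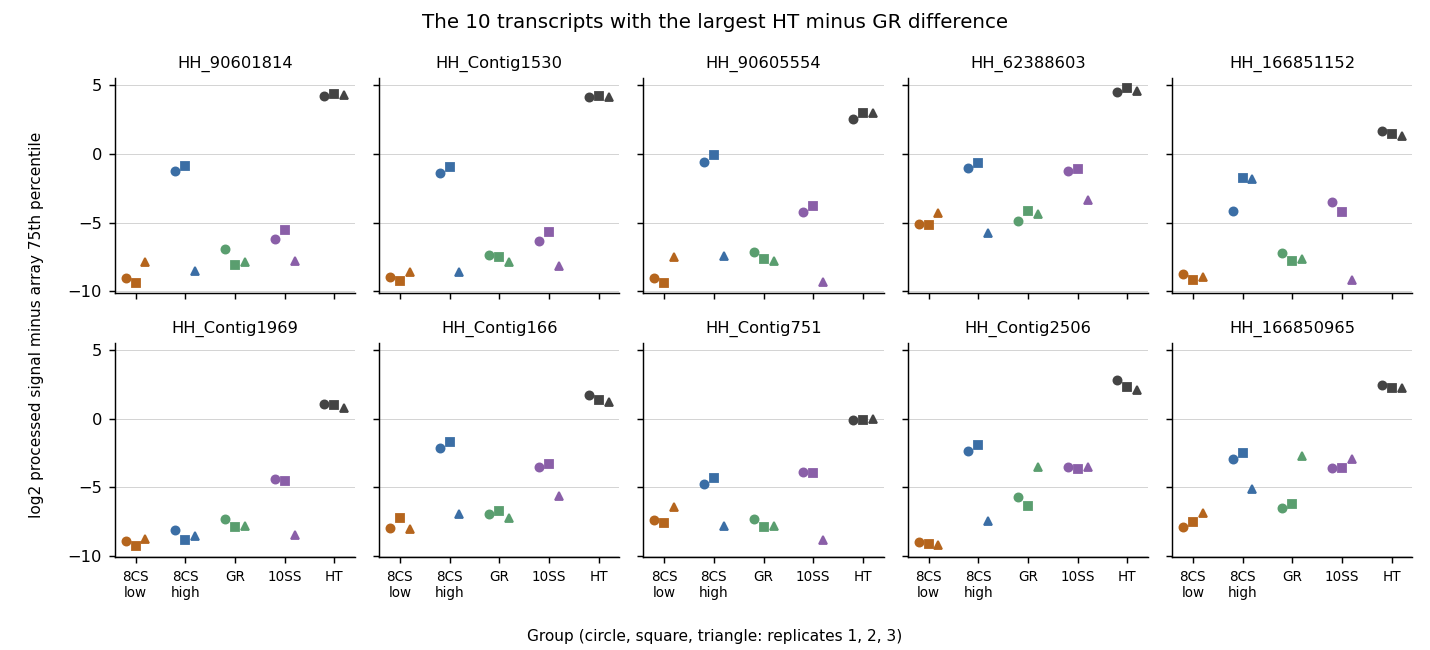
Level (log2 processed signal minus the 75th percentile of the array) of the 10 transcripts with the largest difference between HT and GR in the 5 groups, with a symbol for each replicate. The HT arrays lie close together and above all others, high quality 8CS replicates 1 and 2 lie above replicate 3 in 8 panels, and 10SS replicate 3 lies below replicates 1 and 2 in the same number of panels.

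10SS replicate 3 was not used to choose the transcripts, but the GR and 10SS means it is set against were. On this array 82 of the 131 were well above background. Its level was below both other 10SS arrays in 121 transcripts (92.4%, against 38.2% of all names). It was nearer to the GR mean than to the mean of 10SS replicates 1 and 2 in 111 transcripts (84.7%). The median difference over the transcripts was 0.06 from the GR mean and -2.62 from the mean of 10SS replicates 1 and 2. Over all names it was -0.12 and 0.21. As a comparison, 933 names had the same first difference of 1.5 to under 4 but an HT level less than 1.5 above 10SS. Of these, 91.5% were also below both other 10SS arrays, but 59.6% were nearer to GR, and their median difference from GR was 0.98. That contrast is a description, since both sets were chosen on the means compared. Among the 35 transcripts well above background on all GR and 10SS arrays the median difference was 0.14 from GR and -2.51 from 10SS replicates 1 and 2. Near background the lowest signal differs between arrays, so the order of GR and 10SS replicate 3 has no meaning for the 45 transcripts well above background neither on the latter nor on any GR array.

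A lower level on 10SS replicate 3 did not extend to every transcript. In 9 transcripts it was at or above the mean of replicates 1 and 2, and in the same number it was above both (51.1% of all names). HH_Contig230 was at -7.33, -7.17 and -7.10 at GR, at -5.30, -5.17 and -3.64 on 10SS replicates 1 to 3 and at -3.90, -3.67 and -3.60 at HT. It was the one transcript whose 10SS replicate 3 reached the HT arrays. HH_90603666 was at -3.85, -3.87 and -4.53 at GR, at -1.61, -1.78 and -1.02 at 10SS and at 0.64, 0.49 and 0.52 at HT. HH_90595886 and HH_90607794 were 0.76 and 0.82 higher on 10SS replicate 3 than on the other 10SS arrays, and HH_166850965 was 0.64 higher.

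The largest gaps in the opposite direction led to signals not well above background. HH_90600930 was measured on all GR arrays, at -3.72, -3.57 and -4.43, and was at -0.81 and -1.04 on 10SS replicates 1 and 2, but at -9.16 on replicate 3, below its level at GR, before 1.34, 1.26 and 1.37 at HT. It was the one transcript well above background on all GR arrays that was not so on 10SS replicate 3. HH_166851152, HH_90605554, HH_Contig1901 and HH_Contig2684 were between 5.19 and 5.32 lower on 10SS replicate 3 than on the other 10SS arrays, and were not well above background at GR either. Between 10SS replicate 3 and HT, on the same slide, the median difference was 5.02, and all HT arrays were higher in 130 transcripts (38.7% of all names). That is not the second difference of the rule, and the HT values had chosen the transcripts, so the count follows largely from the rule.

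**Figure D4:**
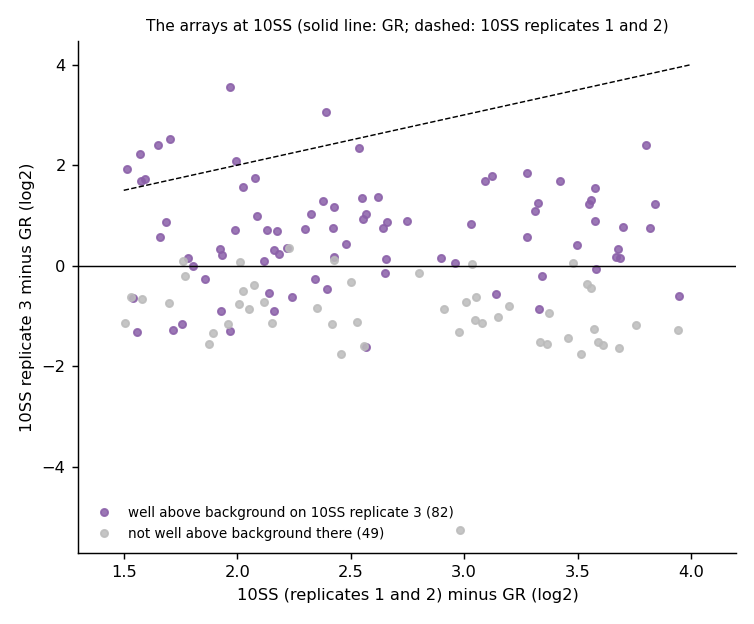
Level on 10SS replicate 3 minus the GR mean (y axis, log2) against the difference between 10SS replicates 1 and 2 and GR (x axis, log2) for the 131 transcripts, coloured by whether they were well above background on 10SS replicate 3. On the solid line replicate 3 equals GR and on the dashed line it equals replicates 1 and 2, and 9 transcripts lie at or above the dashed line.

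The 8CS arrays did not enter the rule. On high quality 8CS replicates 1 to 3, 68, 94 and 56 of the transcripts were well above background, and on the low quality arrays 47, 54 and 57. The transcripts were divided in this respect. On all 6 arrays 41 were well above background and on none 36. The median level was -5.60, -5.30 and -6.92 on high quality replicates 1 to 3 and -7.59, -7.53 and -7.36 on the low quality arrays. All HT arrays were above all low quality 8CS arrays in 128 transcripts (40.6% of all names) and above all high quality 8CS arrays in 128 (39.6% of all names). The rule had required high HT levels, so both counts follow largely from it.

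High quality 8CS replicates 1 and 2 were both above the other 4 8CS arrays in 76 transcripts (58.0%), against 11.5% of all names, and both below them in 1, HH_Contig662 (9.06% of all names). For HH_90601814 the high quality arrays were at -1.26, -0.87 and -8.52 and the low quality arrays at -8.99, -9.37 and -7.84. HH_Contig1530, HH_90605554 and HH_Contig166 were divided in the same way. In HH_90605134, chosen after its values were seen, replicates 1 and 2 (-1.48 and -1.04) were even above HT (-2.87, -2.45 and -3.00), and the other 8CS arrays were between -8.82 and -8.00. HH_Contig1969 was not part of this pattern, with -8.09, -8.83 and -8.56 on the high quality arrays although it reached 0.94 ± 0.12 (SD, n = 3) at HT. Across the 131 transcripts, which are not independent, the level on high quality replicates 1 and 2 had a Pearson's r of 0.80 and 0.79 with the HT level, that on replicate 3 of 0.53 and those on the low quality arrays of 0.44 to 0.50. For the 30 transcripts with an HT level above 1, HT was above the array by a median of 4.30 and 3.99 on high quality replicates 1 and 2, 5.58 on replicate 3 and 5.89 to 6.50 on the low quality arrays. Another 102 names had an equal range of differences between HT and GR. Their difference between GR and 10SS was under 1.5 in either direction (median 0.76). Of these, 55.9% had both arrays above the other 8CS arrays, so the pattern was not particular to the 131. Across these 102 names, r was 0.75 and 0.73 on replicates 1 and 2, 0.52 on replicate 3 and 0.44 to 0.48 on low quality arrays. Across the 933 names described above, it was 0.81 on both, 0.75 on replicate 3 and 0.679 to 0.685 on low quality arrays.

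**Figure D5:**
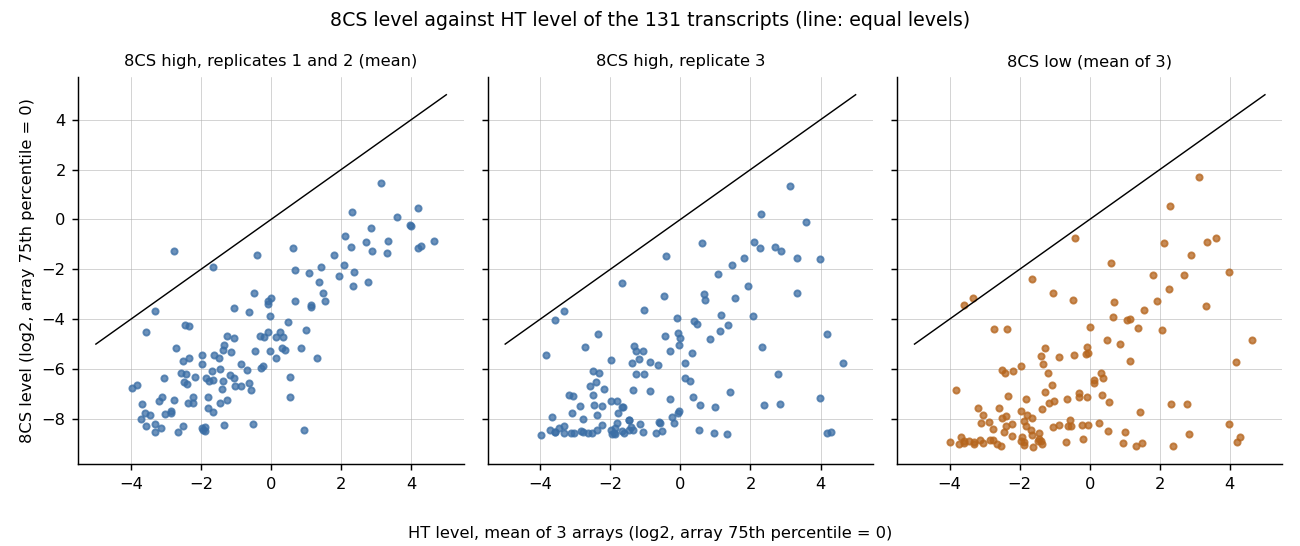
Level at 8CS (y axis) against the HT mean (x axis) for the 131 transcripts, both as log2 processed signal minus the 75th percentile of the array, for the mean of high quality replicates 1 and 2, for replicate 3 and for the mean of the low quality arrays. Transcripts bright at HT fill the lower right of the panels for replicate 3 and for low quality, but not of the first panel, and 1, 0 and 2 transcripts lie above the line of equal levels.

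Some of the transcripts were present in the egg irrespective of these arrays. The 5 with the highest mean on the high quality 8CS arrays were HH_62388025, HH_90988681, HH_62388754, HH_Contig1347 and HH_Contig2633, all well above background on all 15 arrays. HH_62388025 was at 1.67, 1.28 and 1.36 on high quality and 1.62, 1.54 and 1.89 on low quality 8CS arrays, at -0.59, -0.76 and 0.07 at GR, at 1.32, 1.35 and -1.59 at 10SS and at 3.27, 3.04 and 3.06 at HT. GR was therefore the low point between the egg and 10SS replicates 1 and 2. HH_90988681 had the same course, with means of 0.27 and 0.53 in high and low quality 8CS, -1.58 at GR, 0.60 on 10SS replicates 1 and 2 and 2.30 at HT. HH_62388754 differed, with 0.02 in high quality 8CS against -0.29 at GR, and overlapping arrays.

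All 6 8CS arrays were above all GR arrays in 18 transcripts (13.7%), against 23.8% of all names, and the rule had kept transcripts that were low at GR. Of these 18, HH_91063283 had the largest difference between the low quality 8CS and GR means. It was at -3.95, -3.41 and -3.67 in high quality 8CS and at -2.83, -2.50 and -4.07 in low quality 8CS, was not well above background at GR (-7.25, -7.93 and -7.01), and was at -5.13 and -4.75 on 10SS replicates 1 and 2 and at -3.50, -3.28 and -3.19 at HT. The levels in the egg and at HT overlapped. HH_90602631 and HH_Contig662, chosen after their values were seen, also had low quality 8CS arrays at or above an HT array. All 3 low quality 8CS arrays were below all GR arrays in 70 transcripts (53.4%, against 44.6% of all names), but 44 of these were well above background on no array of either group.

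For the question of embryo quality, low and high quality 8CS embryos were compared with limma on their 6 arrays, where 8737 names and 99 of the 131 transcripts reached the 20th percentile of signal on at least 1 array. With p-values adjusted by Benjamini-Hochberg, a limit of 0.05 and a change of 2-fold or more required, no transcript was higher (0.16% of all names tested) and 1 was lower in low quality embryos (1.01% of both the 99 transcripts and of all names tested). At an unadjusted p under 0.05, 3 of the 99 were higher (12.4% of all names tested) and 55 lower (18.7%). The median difference between low and high quality was -0.91 over all 131 transcripts and -0.16 over all 10180 names (log2). It was -0.42 over the 41 transcripts well above background on all 6 8CS arrays. Over the 36 well above background on none it was -0.71, where only background is compared. The counts at unadjusted p include such transcripts, and also transcripts that passed the filter only through high quality replicates 1 and 2. The transcript called was HH_166851152, which was at -4.14, -1.76 and -1.84 in high quality and at -8.75, -9.15 and -8.98 in low quality embryos. It was not well above background on any low quality array and at least 23.4-fold lower there (log2 difference -6.38, SE 0.63, adjusted p = 0.0134 from limma), with no overlap between the groups. Adjusted p over the alternatives ranged from 0.00124 to 0.858, and the call was the same in 13 of 20.

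The difference was larger for high quality replicates 1 and 2 than for replicate 3. Without replicate 3, 47 of 99 transcripts (47.5%) were lower in low quality embryos, against 7.27% of all names tested. Some of the 99 passed the filter only through high quality replicates 1 and 2, where they were high, since 70 are tested without these arrays. The shares of the 99 and of all names are therefore not like for like. With replicate 3 as the only high quality array, assumed to vary like the low quality group, 70 were tested and 1 was lower (1.43%, against 0.271% of all names tested). The transcript lower in that fit was again HH_166851152 (log2 difference -7.11, SE 0.28, adjusted p = 0.0109 from limma). Within slide 4, low quality replicate 3 differed from high quality replicate 3 by a median of -0.34 over the 131 transcripts (-0.20 over all names), and within slide 1 low quality replicate 1 differed from high quality replicates 1 and 2 by -1.30 (-0.14 over all names). Over the 41 transcripts well above background on all 6 8CS arrays, these medians were -0.17 and -0.78.

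10SS replicate 3 was also compared with 8CS. The rule did not use the levels of these arrays. The spread in the fits was taken also from GR, HT and 10SS replicates 1 and 2, which had chosen the transcripts. With limma on the 12 high quality arrays and 10SS replicate 3 as a group of its own, assumed to vary like the others, 19 of the 131 transcripts were higher on it than in high quality 8CS (14.5%, against 26.9% of the 9283 names tested) and 33 were lower (25.2%, against 25.3%). Set against the low quality 8CS arrays instead, 37 were higher (28.2%, against 28.6%) and 15 lower (11.5%, against 23.3%). With high quality replicate 3 as the only 8CS array, so that single arrays were compared and all spread was taken from the other groups, 37 were higher (28.2%, against 26.5%) and 21 lower (16.0%, against 25.3%). The deviations of these 2 arrays from their group means had a correlation of 0.572 over names, whose part in the result was not tested. The number of transcripts called in each direction thus depended on which 8CS arrays were used. Over the 131, 10SS replicate 3 differed from replicates 1 and 2 by a median of -2.62, and replicate 2 from replicate 1 by -0.04. A single array gives no spread of its own, so the adjusted p-values do not measure the spread between batches at 10SS. All 131 entered these fits because their HT signal passed the filter, and the rule had chosen them to be high at HT. On 10SS replicate 3, 82 were well above background, so transcripts with no signal in either group, such as HH_Contig1969, were counted too. The shares of the 131 and of all names are therefore not like for like.

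HH_90603666 had the largest positive difference from high quality 8CS. It was not well above background on any 8CS array, with -7.45, -6.75 and -7.44 on the high quality arrays against -1.02 on 10SS replicate 3, which was at least 47.1-fold brighter (log2 difference 6.19, SE 0.34, adjusted p = 4.8e-07 from limma). HH_90595886 was at least 27-fold brighter (SE 0.24 of a log2 difference of 5.06, adjusted p = 2.3e-07 from limma) and HH_Contig230 at least 8.04-fold (log2 difference 4.52, adjusted p = 5.1e-07). HH_90607794 and HH_90602105 were at least 3.16-fold and 9.31-fold brighter. These 5 are not the largest differences in order. HH_90988191 (log2 difference 4.34), HH_90596499 (3.98) and HH_90607406 (3.84) were above HH_90602105 (3.83). HH_90602105 was named as the last inside the rule. The rest of the 5 were named as highest on 10SS replicate 3 against the other 10SS arrays, which favours a higher call. The direction of HH_Contig230, HH_90607794 and HH_90602105 was opposite under normexp background correction. All 5 were also called higher against the low quality arrays.

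Among the 112 transcripts not called higher, HH_166851152 and HH_90605554 had the largest negative differences. HH_166851152 was at -9.19 on 10SS replicate 3 and at least 33.2-fold lower than in high quality 8CS (log2 difference -6.60, adjusted p = 4.39e-05 from limma), but differed by -0.23 from low quality 8CS (adjusted p = 0.803), where it was not well above background either. HH_90605554 was called lower as well, by at least 30.7-fold (adjusted p = 0.0228), while the high quality arrays were at -0.58, -0.10 and -7.40. Without high quality replicates 1 and 2 the log2 difference of HH_90605554 was -1.87. It was then well above background on neither array compared, so their order has no meaning. HH_90605554 was not called against low quality 8CS (log2 difference -0.66). HH_91063283, present in all 6 8CS arrays, was at least 15.6-fold lower on 10SS replicate 3 than in high quality 8CS (log2 difference -5.48, SE 0.35, adjusted p = 1.19e-06), and lower than in low quality 8CS too (-6.02, adjusted p = 6.46e-07). HH_Contig1530 and HH_90601814, at -8.18 and -7.82 on this array, were not called (adjusted p = 0.103 and 0.129).

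Of the 5 transcripts with the highest 8CS level, 3 were called lower on 10SS replicate 3 than in high quality 8CS. They were HH_62388025 (8.11-fold, log2 difference -3.02, SE 0.31), HH_90988681 (3.04-fold) and HH_62388754 (3.09-fold, not called against low quality 8CS). The 5 had been picked by the high quality 8CS mean that is compared here, which favours a fall, so the calls are a description. The other 10SS arrays did not share this fall. The means of HH_62388025 and HH_90988681 on replicates 1 and 2 were 1.33 and 0.60, against 1.43 and 0.27 in high quality 8CS. HH_62388754 had a mean there above that of high quality 8CS. The rule required replicates 1 and 2 to be at least 1.5 above GR, which favours such levels. HH_Contig1347 (log2 difference -0.81, adjusted p = 0.163) and HH_Contig2633 (-0.22, adjusted p = 0.423) were not called. Of the lowest on 10SS replicate 3 among the 10SS arrays, HH_90600930 was called lower than high quality 8CS (log2 difference -2.57), but in 7 of 25 alternatives only. HH_Contig1901 (log2 difference -1.87) was called so in 18 of 25. Both had been named for a low level on 10SS replicate 3, which favours such a call.

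The array identifiers of the 131 were unevenly spread over groups of identifiers that begin alike. What these groups stand for is not given in the sources used here. Identifiers that begin with 623 made up 2.39% of all names but 12.2% of the transcripts, with 16 of 243 meeting the rule (6.58%, against 1.29% of all names), and of 35 that begin with 949, 4 met it. In contrast, 33 of 3065 Contig names (1.08%) and none of 446 that begin with 193 did. The 16 had a median first difference of 2.74 and a median second difference of 2.36, close to those of all 131.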

How the data were processed

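The authors labelled total RNA with Cy3, hybridised it to 60-mer arrays and deposited the output of Feature Extraction (10.7.1.1 in the file headers, 7.2 in the methods), with the background-subtracted intensity of each spot on a linear scale. Deposited flags per spot mark outliers and signals well above background. The authors also deposited a log2 table of 9017 names, scaled to the 75th percentile and, as their methods state, set to the median of all arrays, which was used as an alternative. Here control and outlier spots were left out, log2 intensity was set to the 75th percentile of the array, and spots of a name were averaged. The transcripts, the lists and the tests were chosen with earlier results of these data known. Tests used limma 3.58.1 (lmFit, eBayes) in R 4.3.3 on names whose signal reached the 20th percentile of any array compared, with Benjamini-Hochberg adjustment over all names, an adjusted p of 0.05 and a 2-fold limit. A group with no array well above background was given a bound, with each array at the higher of its lowest signal well above background and the signal of the probe. Named are the 10 largest differences between HT and GR, values at the limits, the 5 highest and lowest on 10SS replicate 3 against the other 10SS arrays, transcripts called between qualities, the 5 highest at 8CS and the 5 with the largest fall to 10SS replicate 3. On simulated data of 8611 names for the comparison of qualities, 53% of changes of 1.5 and 89% of changes of 3 (log2) were recovered, and 48% and 88% of those for 10SS replicate 3 against 8CS (8675 names). The simulated noise was independent between arrays and of 1 spread per name, so these shares do not cover arrays that deviate together. High quality 8CS and 10SS arrays with the same replicate number had correlated deviations (0.351 to 0.572). Replicates 1 and 2 did so across numbers as well (0.414 and 0.455), so the correlations do not show a pairing by number. Replicate 3 stood apart in both groups. Alternatives were other background corrections, scalings, filters and blocks, and leaving out arrays. None of 131 names matched a gene name in the study's tables of 304 probes.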

Additional observations from a re-analysis of the deposited data

How the results depend on the processing

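The choice of the transcripts depended on the processing. Of the 131, 106 to 128 met the difference limits with quantile normalization, the median over spots or the deposited log2 table, and 113 to 129 without any 1 array. With all 3 10SS arrays 86 did, under spike-in scaling 35, under normexp background correction 13, and 20 with outlier local backgrounds replaced. Both differences stayed above 0 in all 131 except under normexp (56 and 80). The first difference was the one mostly lost there. Its median was -0.18 under normexp and 0.23 with backgrounds replaced, and 14 and 21 transcripts had 1.5 or more. The median second difference was 1.68 and 1.82, and 87 and 91 transcripts had 1.5 or more. Spike-in scaling shifted the median difference between HT and GR over all names from -0.30 to 2.35. The median of 10SS replicate 3 minus GR was -1.30 and -0.87 under the normexp settings and 1.61 under spike-in scaling, and that minus 10SS replicates 1 and 2 was -1.14, -1.04 and -3.03. The causes were not tested.

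Between low and high quality 8CS, the number of transcripts lower in low quality was 0 under normexp, the deposited table and slide as a fixed block. Of all names tested, 0%, 0.0122% and 0.217% were lower there. It was 3 of 99 under normexp with backgrounds replaced (3.03%, against 0.753% of all names tested). With a filter on signals well above background it was 6 of 53 (11.3%, against 1.74%). It was 11 of 131 with all 15 arrays in 1 fit (8.4%, against 3.08%). Under spike-in scaling it was 13 of 99 (13.1%, against 2.39%), and 5 were called higher (5.05%, against 24.8%). In the fit with all 15 arrays, the HT arrays let all 131 pass the filter. The filter on signals well above background kept transcripts that were so on all arrays of either quality. Of the 53, 49 were so on all high quality and 45 on all low quality arrays, and 41 on both. The others entered through 1 quality alone. Leaving out 1 array gave 0 to 47 lower (0% to 47.5%, against 0.115% to 7.27% of all names tested). With the replicate number as a block, 0 were lower (0.183% of all names tested). The numbers do not pair the qualities (correlations of -0.142 to -0.035 between arrays with the same number). For 10SS replicate 3 against high quality 8CS, normexp called 0 higher (10.4% of all names tested) and 21 lower (15.6%), 4 higher with backgrounds replaced (18.4%), and spike-in scaling 41 higher (52.7%) and 8 lower (8.47%). Leaving out 1 array gave 16 to 23 higher (12.2% to 17.6%, against 26.5% to 28.2% of all names tested). It gave 28 to 57 lower (21.4% to 43.5%, against 24.2% to 26.4%), the last without high quality 8CS replicate 3. Without high quality 8CS replicates 1 and 2, the median difference was 0.10 over the transcripts and -0.08 over all names tested. With low quality 8CS, 37 were higher (28.2%, against 28.6%) and 15 lower (11.5%, against 23.3%). With the replicate block 19 were higher (14.5%, against 27%) and 26 lower (19.8%, against 25.4%). Of the named calls, 318 of the repeats were past the threshold in the same direction, 49 were no longer past it, and 3 changed direction, all under normexp, HH_90602105 to -0.25, HH_Contig230 to -0.33 and HH_90607794 to -1.09. The settings on backgrounds, on pairs of arrays and on low quality 8CS were chosen after seeing the data.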
